A study of Mus musculus with 6 samples.

Results

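Imprinted genes were followed in eWAT, the white fat pad that lies along the epididymis, of mice with tumor-induced cachexia. The 40 genes described here are known imprinted genes of the mouse, matched by symbol among the 54532 genes of the deposited count table, and all 40 were found. The list takes its name from Zim1 and Peg3, which were picked out by their values in the comparison made here, so their values are given as a description and without a test. The parent whose allele is read was assigned from general knowledge of the mouse: 21 genes are paternally expressed, 16 are maternally expressed, and 3 (Gnas, Blcap and Inpp5f) differ by transcript. RNA was sequenced from 3 cachectic mice and 3 control mice, all young adult male C57BL/6 mice. The cachectic mice had been inoculated under the skin with cells of Lewis lung carcinoma (LLC), a mouse lung cancer line, and had lost body weight, and the control mice are described as normal. Each sample is taken here as a single mouse, but the labels only number the samples, so p-values measure the spread between these samples.

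Genomic imprinting silences the copy of a gene inherited from the mother or from the father, through DNA methylation set in the germ cells, so that only the other parental copy is transcribed. Imprinted genes lie in clusters that share a control region, and a cluster often holds genes read from opposite parental copies. Many of them act on growth and on the differentiation of fat, such as Dlk1, a brake on preadipocyte differentiation, and Grb10, an adaptor that dampens insulin receptor signaling. All mice were of a single inbred strain and the counts are not split by parental allele, so the values below are total expression of a gene, not its imprint.

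The total count per sample lay between 14928766 and 18855546, with the cachectic mice below the control mice. Expression is given as CPM, the raw count scaled to the library size after TMM normalization, and a log2 fold change is that of cachectic over control mice with its standard error (SE). Of 16003 genes with enough counts, 2821 had an adjusted p-value under 0.05 in edgeR's quasi-likelihood test. The adipocyte markers fitted the tissue label, and no marker of the 12 listed was at 0 in all mice. Their summed expression was 36111 to 51138 CPM in control mice and 37805 to 53792 CPM in cachectic mice. Of the 12, 2 were higher and 1 (Lep) was lower in cachectic mice, beside 9.0% and 8.63% of all tested genes. Of 12 fibroblast and progenitor markers, 7 were lower and 1 was higher in cachectic mice, and their sum was 3695 to 4718 CPM in control mice and 1004 to 1363 CPM in cachectic mice. Of 7 tested neutrophil markers 6 and all 6 erythroid markers were higher, and none of the 8 epididymal markers had enough counts to be tested. Of 8 endothelial markers 3 were higher and none lower, with sums of 1668 to 1797 CPM in control mice and 2133 to 3352 CPM in cachectic mice. Of 8 smooth muscle and pericyte markers 1 was lower and none higher, with sums of 947 to 1283 CPM and 443 to 790 CPM. The part of these cells in the values below was not tested. In bulk tissue, fewer cells of a type and less RNA per cell cannot be told apart.

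Zim1 and Peg3 lie side by side on chromosome 7, on the same strand, with 7441 bases between the start of Zim1 and the end of Peg3. Zim1 (ENSMUSG00000002266, chr7:6671269-6696450) encodes a zinc finger protein and is read from the maternal copy. Peg3 (ENSMUSG00000002265, chr7:6703892-6730431) encodes a large zinc finger protein that binds DNA and is read from the paternal copy. Expression of Zim1 was 2.01, 1.78 and 1.13 CPM in the control mice and 110, 116 and 162 CPM in the cachectic mice. That of Peg3 was 48.5, 84.8 and 58.8 CPM in the control mice and 837, 692 and 1272 CPM in the cachectic mice. For both genes every cachectic mouse was far above every control mouse, and cachexia replicate 3 was the highest. On the log2 scale the difference was 6.29 ± 0.27 (SE) for Zim1 and 3.87 ± 0.33 (SE) for Peg3, which are 78.1-fold and 14.6-fold. The maternally read gene of the pair had the larger fold change, and the ratio of Zim1 to Peg3 in FPKM, a level per gene length, was 0.0448 ± 0.0203 in control mice and 0.234 ± 0.0366 in cachectic mice (SD, n = 3).

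Usp29, a paternally read gene for a ubiquitin-specific protease, starts 146 bases from Peg3 on the opposite strand. It had too few counts to be tested, with 2, 0 and 1 counts in the control mice and 7, 5 and 24 counts in the cachectic mice. Summed over mice, the ratio of cachectic to control counts, scaled to library size, was 13.6, with a 95% exact interval of 4.29 to 68.8 that covers counting error only. Both genes are known to share the promoter between them, part of the control region that is methylated on the maternal copy. The stretch between the starts of Peg3 and Usp29 and the bases upstream of Zim1 are shown because these promoters belong to the genes that differed most. They were taken from RefSeq promoters of GRCm38.p6, without any annotated exon. The former is chr7:6730432-6730577 on the plus strand (146 bases, 5 CpG) and the latter is chr7:6696451-6696682 on the minus strand (232 bases, 12 CpG), with CpG dinucleotides, the sites of DNA methylation, in capitals.
Peg3-Usp29: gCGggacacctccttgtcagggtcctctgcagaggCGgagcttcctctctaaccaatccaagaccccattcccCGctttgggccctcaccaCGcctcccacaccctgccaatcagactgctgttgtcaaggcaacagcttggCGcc
Zim1: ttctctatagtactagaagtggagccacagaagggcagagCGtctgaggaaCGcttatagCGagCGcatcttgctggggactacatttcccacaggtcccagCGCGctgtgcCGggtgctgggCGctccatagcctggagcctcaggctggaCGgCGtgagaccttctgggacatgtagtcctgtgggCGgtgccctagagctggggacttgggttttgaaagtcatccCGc

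Within 500 kb of Zim1, 8 genes besides Zim1 and Peg3 had enough counts, all of them zinc finger genes that are not on the list. They are Zfp444, Zfp667, Zfp583, Zfp78, Zfp28, Zfp954, Zfp773 and Zfp418. None of the 8 passed the test, with log2 fold changes between -0.84 and 0.65 and adjusted p-values between 0.132 and 0.745 in edgeR's quasi-likelihood test, and 2 had an unadjusted p-value under 0.05. Without control replicate 1, the log2 fold change of Zfp444 was 0.95 and passed with an adjusted p-value of 0.0404, in a range of 0.0404 to 0.332 over its alternatives.

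**Figure D1:**
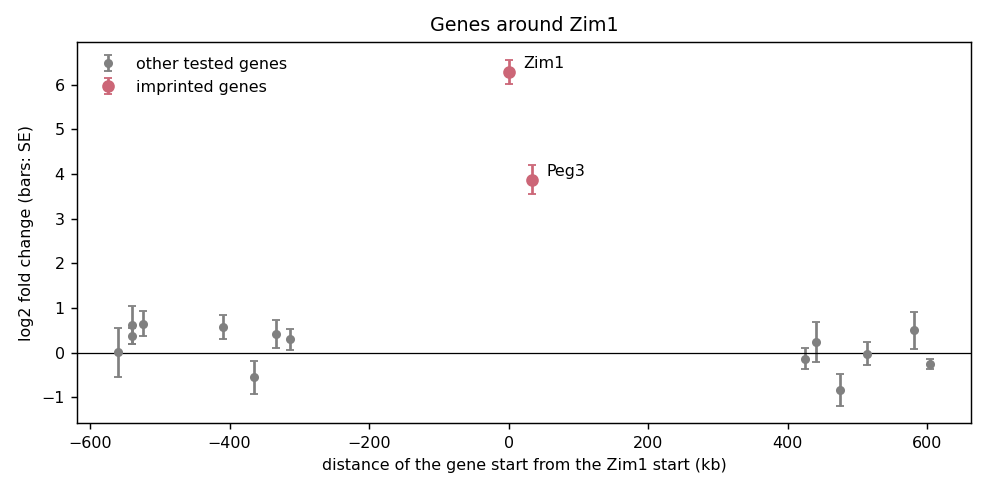
Log2 fold change of cachectic over control mice (y axis, bars are SE) against the distance of each gene's start from the Zim1 start in kb (x axis), for tested genes around Zim1. Zim1 at 6.29 and Peg3 at 3.87 stand above the other tested genes, which are shown in grey.

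Of the 40 imprinted genes, 34 had enough counts to be tested, and Usp29, H19, Rtl1, Phlda2, Ascl2 and Magel2 did not. Among the 34, Dlk1, Asb4 and Mirg reached the minimum for testing in every control mouse but not in every cachectic mouse. A decrease in these genes was thus favored beforehand. Apart from Zim1 and Peg3, 32 genes were tested, of which 2 (Zrsr1 and Grb10) were higher and 2 (Dlk1 and Ndn) were lower in cachectic mice, which is 12.5% of them, beside 17.6% of all tested genes. Over all tested genes 9.0% were higher and 8.63% were lower. The groups did not overlap for 7 of the 32 genes (Dlk1, Mirg, Slc22a18, Grb10, Ndn, Impact and Zrsr1), beside 40.5% of all tested genes (20.4% with the cachectic mice higher and 20.1% with them lower). The median log2 fold change of the 32 genes was -0.18, with 9 values above 0 and 23 below 0, and that of all tested genes was -0.003.

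The paternally and the maternally expressed genes did not part into opposite directions. Of 17 tested paternally expressed genes other than Peg3, Zrsr1 was higher, Dlk1 and Ndn were lower and 14 did not pass, with a median log2 fold change of -0.15. Of 12 tested maternally expressed genes other than Zim1, Grb10 was higher and 11 did not pass, with a median of -0.23. The median of the paternally expressed genes with Peg3 included was -0.15 and became 0.05 without cachexia replicate 2, and that of the maternally expressed genes with Zim1 included was -0.22. Some listed genes are of limited imprinting, such as Dcn and Ube3a, which are imprinted only in some tissues or cells. Without such genes these medians were -0.18 for 16 paternally and -0.44 for 8 maternally expressed genes. The 3 genes that differ by transcript did not pass, with log2 fold changes of 0.31 for Gnas, -0.15 for Blcap and -0.04 for Inpp5f, the last of which became 0.01 when only library totals were used for scaling. With control replicate 3 left out, the number of all genes passing fell to 828, and with control replicate 2 left out to 1312.

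**Figure D2:**
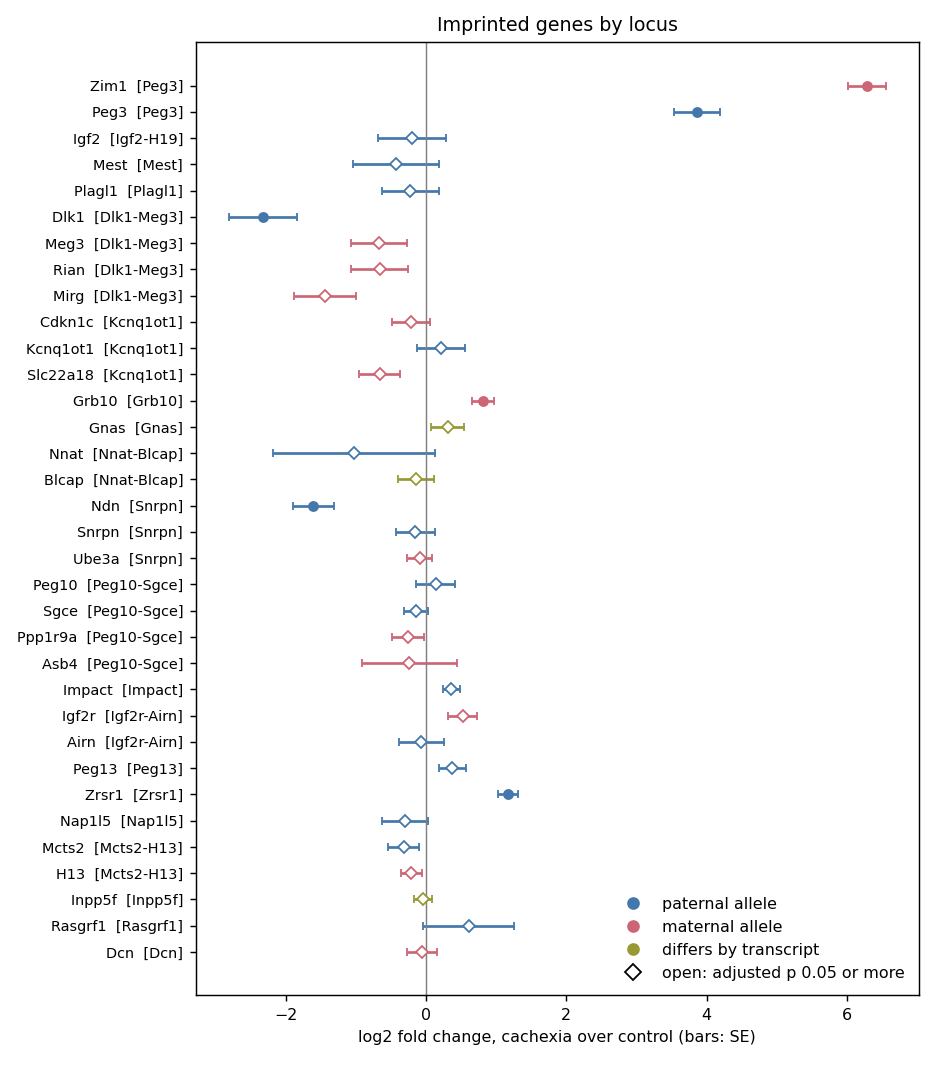
Log2 fold change of cachectic over control mice (x axis, bars are SE) for the 34 tested imprinted genes (y axis, locus in brackets), colored by the parental allele read, with open symbols for adjusted p-values of 0.05 or more. Zim1 and Peg3 lie far to the right, Dlk1 and Ndn lie to the left, and most other genes lie near 0.

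Zrsr1 (ENSMUSG00000044068, chr11:22972005-22976496) is a paternally expressed gene without introns that encodes a relative of the splicing factor U2AF and lies within Commd1. Its expression was 29.4, 25.9 and 30.1 CPM in the control mice and 64.8, 54.7 and 73.2 CPM in the cachectic mice. The lowest cachectic mouse was well above the highest control mouse. The log2 fold change was 1.17 ± 0.15 (SE), with an adjusted p-value of 0.00346 in edgeR's quasi-likelihood test, and it passed in all 16 alternative analyses. Commd1, on the opposite strand, shares 412 bases of exon with Zrsr1, 9.17% of the Zrsr1 exons, and whether the counting used strand is not given in the sources used here. The log2 fold change of Commd1 was -0.57 ± 0.23 (SE), with an adjusted p-value of 0.128 in the same edgeR test, and the ratio of Zrsr1 to Commd1 in FPKM was 2.39 ± 0.240 in control mice and 8.06 ± 0.988 in cachectic mice (SD, n = 3).

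Grb10 (ENSMUSG00000020176, chr11:11930508-12038683), read from the maternal copy outside the brain, encodes an adaptor protein that binds the insulin and IGF1 receptors and restrains their signaling. Its expression was 78.0, 104 and 78.4 CPM in the control mice and 161, 159 and 140 CPM in the cachectic mice. All cachectic mice were above all control mice, and control replicate 2 was the nearest to them. The log2 fold change was 0.82 ± 0.16 (SE), with an adjusted p-value of 0.0137 in edgeR's quasi-likelihood test. Without control replicate 3 it was 0.75 with an adjusted p-value of 0.0773, and over all 16 alternatives the adjusted p-values lay between 8.8e-05 and 0.0773. The bases upstream of Zrsr1 (chr11:22971755-22972004, plus strand, 8 CpG) and of a Grb10 start (chr11:12037421-12037670, minus strand, 40 CpG) are shown because these are the genes outside the Peg3 locus that were higher.
Zrsr1: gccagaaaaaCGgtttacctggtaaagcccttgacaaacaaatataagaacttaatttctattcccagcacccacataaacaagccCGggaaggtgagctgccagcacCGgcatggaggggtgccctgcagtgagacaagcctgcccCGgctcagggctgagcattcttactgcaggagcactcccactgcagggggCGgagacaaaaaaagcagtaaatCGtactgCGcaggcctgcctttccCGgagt
Grb10: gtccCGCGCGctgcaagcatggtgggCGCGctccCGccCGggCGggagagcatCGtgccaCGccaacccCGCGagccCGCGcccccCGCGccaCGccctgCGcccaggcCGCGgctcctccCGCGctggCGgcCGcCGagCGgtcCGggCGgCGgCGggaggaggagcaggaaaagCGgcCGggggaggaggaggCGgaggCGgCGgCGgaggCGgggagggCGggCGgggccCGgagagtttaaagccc

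The 4 tested genes of the list in the Dlk1-Meg3 locus on chromosome 12 had negative log2 fold changes, and of these 4 Dlk1 passed the test. Dlk1 (ENSMUSG00000040856, chr12:109452823-109463336), the preadipocyte factor 1 gene, is read from the paternal copy and encodes a membrane protein that holds back adipogenesis. Its expression was low, with 60, 33 and 36 counts or 3.01, 1.89 and 2.04 CPM in the control mice and 7, 4 and 11 counts or 0.41, 0.25 and 0.72 CPM in the cachectic mice. Dlk1 reached the minimum for testing in every control mouse but not in every cachectic mouse. This favored a decrease beforehand, so its test is given as a description. The groups did not overlap, and the log2 fold change was -2.33 ± 0.48 (SE), with an adjusted p-value of 0.0176 in edgeR's quasi-likelihood test. It did not pass without control replicate 3 (adjusted p-value 0.0611) or without cachexia replicate 1 (adjusted p-value 0.0580), and over the 15 alternatives that could test it the adjusted p-values lay between 0.000926 and 0.0611. The bases upstream of Dlk1 (chr12:109452573-109452822, plus strand, 8 CpG) are shown as those of the tested gene with the largest decrease on the list.
Dlk1: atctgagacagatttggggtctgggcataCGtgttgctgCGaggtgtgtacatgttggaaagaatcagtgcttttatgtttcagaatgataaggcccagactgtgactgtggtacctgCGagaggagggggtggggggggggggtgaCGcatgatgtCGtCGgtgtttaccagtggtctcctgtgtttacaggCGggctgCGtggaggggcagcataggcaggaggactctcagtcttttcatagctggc

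The maternally read long noncoding RNAs of the same locus also had negative log2 fold changes, but none passed. Meg3 had 38.8, 39.3 and 27.7 CPM in the control mice and 19.7, 10.4 and 36.6 CPM in the cachectic mice, and cachexia replicate 3 lay within the control range. Its log2 fold change was -0.67 ± 0.40 (SE), with an adjusted p-value of 0.280 in edgeR's quasi-likelihood test. Without cachexia replicate 3 it was -1.22 and passed with an adjusted p-value of 0.0456, at the low end of a range of 0.0456 to 0.487 over the alternatives. Rian, the host of small nucleolar RNAs, had 22.2, 29.6 and 20.1 CPM in the control mice and 13.9, 6.82 and 24.8 CPM in the cachectic mice, and its log2 fold change was -0.66 with an adjusted p-value of 0.293. Rian thus had the same mice high and low as Meg3 among the cachectic mice, and the ratio of Rian to Meg3 in FPKM was 0.678 ± 0.096 in control mice and 0.674 ± 0.0235 in cachectic mice (SD, n = 3). Mirg, a host of microRNAs, had 1.51, 0.86 and 1.36 CPM in the control mice and 0.41, 0.37 and 0.59 CPM in the cachectic mice, without overlap, but its adjusted p-value was 0.0580. The ratio of Dlk1 to Meg3 in FPKM was 0.212 ± 0.0512 in control mice and 0.0683 ± 0.00662 in cachectic mice (SD, n = 3), and it was lower in every cachectic mouse than in every control mouse. Rtl1, the retrotransposon-derived gene of the locus, had 1, 7 and 2 counts in the control mice and 0, 4 and 1 counts in the cachectic mice.

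Ndn was the other gene that was lower. Ndn (ENSMUSG00000033585, chr7:62346569-62350262) encodes necdin, a MAGE family protein that restrains cell proliferation, and is read from the paternal copy of the Snrpn locus. Its expression was 59.2, 41.6 and 48.0 CPM in the control mice and 19.4, 9.27 and 20.3 CPM in the cachectic mice, without overlap. Its log2 fold change was -1.61 ± 0.29 (SE), with an adjusted p-value of 0.0114 in edgeR's quasi-likelihood test, and it passed in all 16 alternatives. The other tested genes of the list in this locus did not pass. Snrpn, a spliceosome gene read from the paternal copy, had a log2 fold change of -0.15 (adjusted p-value 0.735), and Ube3a, a ubiquitin ligase gene imprinted in neurons, had -0.09 (adjusted p-value 0.770). Magel2, a neighbor of Ndn and also a MAGE family gene, had 0 counts in every mouse. Snrpn shares 589 bases of exon with Gm38393, and Ube3a shares 1803 with the antisense transcript Snhg14, so their values are uncertain.

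Dlk1 and Ndn are both expressed in adipose progenitors. Of the 12 fibroblast and progenitor markers 7 were lower and 1 was higher, beside 8.63% of all tested genes lower and 9.0% higher. The part of these cells in the decrease of Dlk1 and Ndn was not tested. Dcn, the decorin gene, which fibroblasts express strongly and which is imprinted only in some tissues, was between 1843 and 2169 CPM in control mice and between 1612 and 2292 CPM in cachectic mice, with a log2 fold change of -0.06 ± 0.21 (SE). Of 8 markers of cycling cells 4 were lower and none higher, beside the same shares of all tested genes. They summed to 26.5 to 51.0 CPM in control mice and 8.05 to 19.5 CPM in cachectic mice.

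**Figure D3:**
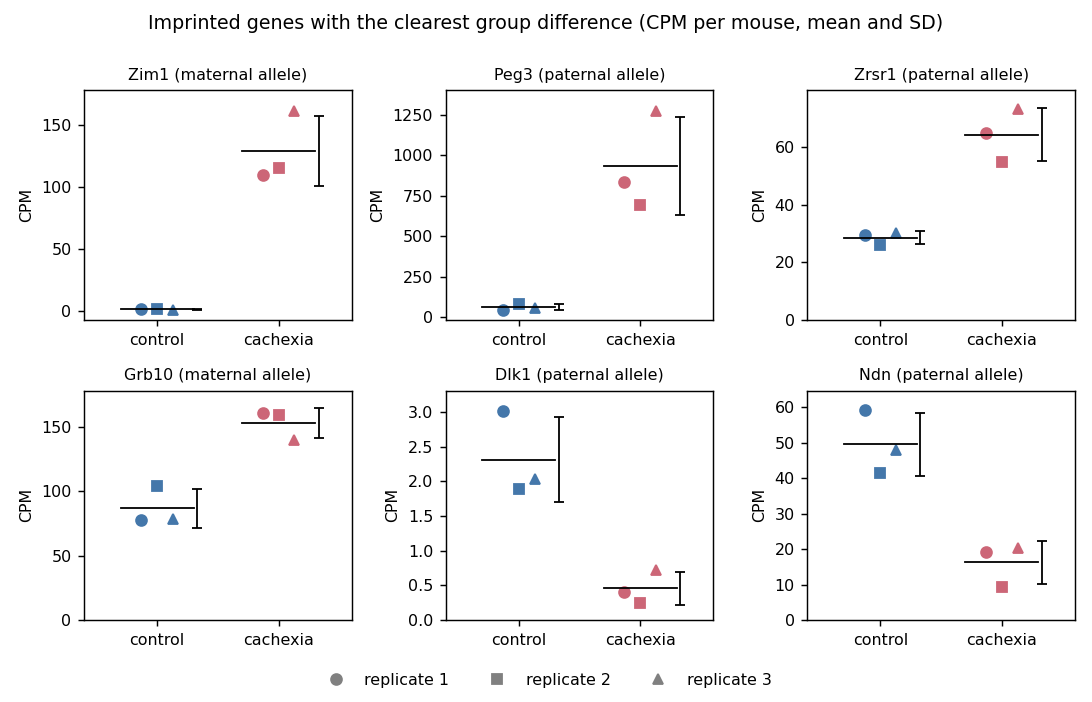
Expression in CPM (y axis) of Zim1, Peg3, Zrsr1, Grb10, Dlk1 and Ndn in the control and cachectic mice (x axis), with a symbol per mouse, the group mean as a line and the SD as a bar (n = 3). The groups do not overlap in any of these 6 genes, and Dlk1 is drawn on the smallest scale, with a highest value of 3.01 CPM.

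Igf2 and Plagl1 did not pass, and H19 had too few counts to be tested. Igf2, the paternally read insulin-like growth factor, had 8, 11 and 13 counts in the control mice and 11, 9 and 5 counts in the cachectic mice, and its log2 fold change was -0.20 with an adjusted p-value of 0.805. H19, the maternally read noncoding RNA beside Igf2, had 42, 8 and 10 counts in the control mice and 7, 11 and 4 counts in the cachectic mice. Control replicate 1 was far above the other 5 mice in H19, and it also had 22 counts of Ascl2, a maternally read transcription factor gene with at most 3 counts elsewhere. This mouse had the highest sum of epididymal markers, 4.77 CPM beside at most 1.28 CPM in the others, and more genes with a count, 24552, than any other, and the part of this in H19 and Ascl2 was not tested. Plagl1, a zinc finger gene read from the paternal copy, had 56.8, 146 and 163 CPM in the control mice and 135, 65.4 and 114 CPM in the cachectic mice. Its groups overlapped widely, with an adjusted p-value of 0.741 in edgeR's quasi-likelihood test.

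In the Kcnq1ot1 locus none of the 3 tested genes passed. Cdkn1c, a maternally read inhibitor of cyclin-dependent kinases, was at 17.8 to 35.1 CPM in cachectic mice and 23.4 to 31.5 CPM in control mice (adjusted p-value 0.617). Slc22a18, a maternally read transporter gene, was lower in every cachectic mouse, with 8.08, 5.33 and 5.04 CPM in the control mice and 3.97, 4.42 and 3.28 CPM in the cachectic mice, but its adjusted p-value was 0.152. Kcnq1ot1, the noncoding RNA that silences the locus on the paternal copy, had a log2 fold change of 0.21 ± 0.34 (SE), and Phlda2, which restrains placental growth, had at most 8 counts in any mouse.

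Igf2r, the maternally read receptor that clears IGF2, was 80.2, 103 and 101 CPM in the control mice and 143, 165 and 100 CPM in the cachectic mice. Cachexia replicate 3 lay at the control level while the other cachectic mice were higher, and the log2 fold change was 0.52 ± 0.20 (SE) with an adjusted p-value of 0.115 in edgeR's quasi-likelihood test. Without that mouse it was 0.70 and passed with an adjusted p-value of 0.0337, in a range of 0.0337 to 0.261 over the alternatives. Airn, the paternally read antisense RNA that silences Igf2r in cis, had a log2 fold change of -0.07 ± 0.32 (SE) that changed sign with scaling by library totals. Impact, a paternally read regulator of translation, was 84.8, 84.5 and 87.3 CPM in the control mice and 98.6, 117 and 114 CPM in the cachectic mice. The groups did not overlap, the log2 fold change was 0.36 ± 0.12 (SE) and the adjusted p-value was 0.0782 in edgeR's quasi-likelihood test. It passed with DESeq2 (adjusted p-value 0.0450), in a range of 0.0450 to 0.210 over the alternatives.

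The remaining tested genes did not pass. In the Peg10-Sgce locus on chromosome 6, the retrotransposon-derived gene Peg10, the epsilon-sarcoglycan gene Sgce, the neurabin gene Ppp1r9a and Asb4 had log2 fold changes between -0.26 and 0.14. Mcts2, a paternally read retrogene, and its host H13, a signal peptide peptidase gene, had log2 fold changes of -0.32 and -0.21, and their ratio in FPKM was 0.643 ± 0.0421 in control mice and 0.597 ± 0.0217 in cachectic mice (SD, n = 3). For Zrsr1 and its host Commd1 the same ratio was higher in every cachectic mouse than in every control mouse. Nap1l5, a histone chaperone-like gene, had -0.30, Peg13, a noncoding RNA inside Trappc9, had 0.38, and Rasgrf1, an exchange factor gene, had 0.61 ± 0.65 (SE) on counts of 11 to 64 per mouse. The value for Rasgrf1 was 0.11 without cachexia replicate 3, 0.18 without control replicate 1, 0.92 without cachexia replicate 2 and 1.29 without control replicate 2, and did not pass in any of these.

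Nnat and Mest, both read from the paternal copy and both expressed in fat, were set apart by a single mouse. Nnat, which encodes the small membrane protein neuronatin and lies inside an intron of Blcap, had 647, 756 and 866 CPM in the control mice and 460, 4.05 and 648 CPM in the cachectic mice. Cachexia replicate 2 was 113-fold below the lowest of the other 5 mice. The log2 fold change was -1.03 ± 1.15 (SE) with an adjusted p-value of 0.572 in edgeR's quasi-likelihood test, and without this mouse it was -0.45 with an adjusted p-value of 0.235, the lowest in a range up to 0.713. The size of this value also depended on the method, with -2.81 by limma-voom and -2.65 and -2.81 by limma on log2 FPKM with pseudocounts of 1 and 0.1, none of which passed. Mest, a gene linked to the size of adipocytes, had 121, 84.0 and 134 CPM in the control mice and 110, 15.5 and 126 CPM in the cachectic mice. The same mouse was 5.41-fold below the lowest of the others, and the log2 fold change of -0.43 became 0.07 without it. Blcap, around Nnat, was 71.7 CPM in this mouse and 127 and 120 CPM in the other cachectic mice, so the gap was far smaller there. Mest shares 912 bases of exon with Copg2 on the opposite strand, 23.1% of its exons.

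Cachexia replicate 2 held the lowest value of all 6 mice in 11 of the 34 tested genes (32.4%), beside 18.4% of all tested genes. Control replicate 1 held it in 10 (29.4%), beside 17.9% of all tested genes. The spread between mice of a group was larger for the imprinted genes than for the typical gene, with a median SD of log2 CPM of 0.27 in control mice and 0.36 in cachectic mice, beside 0.19 and 0.26 over all tested genes.

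**Figure D4:**
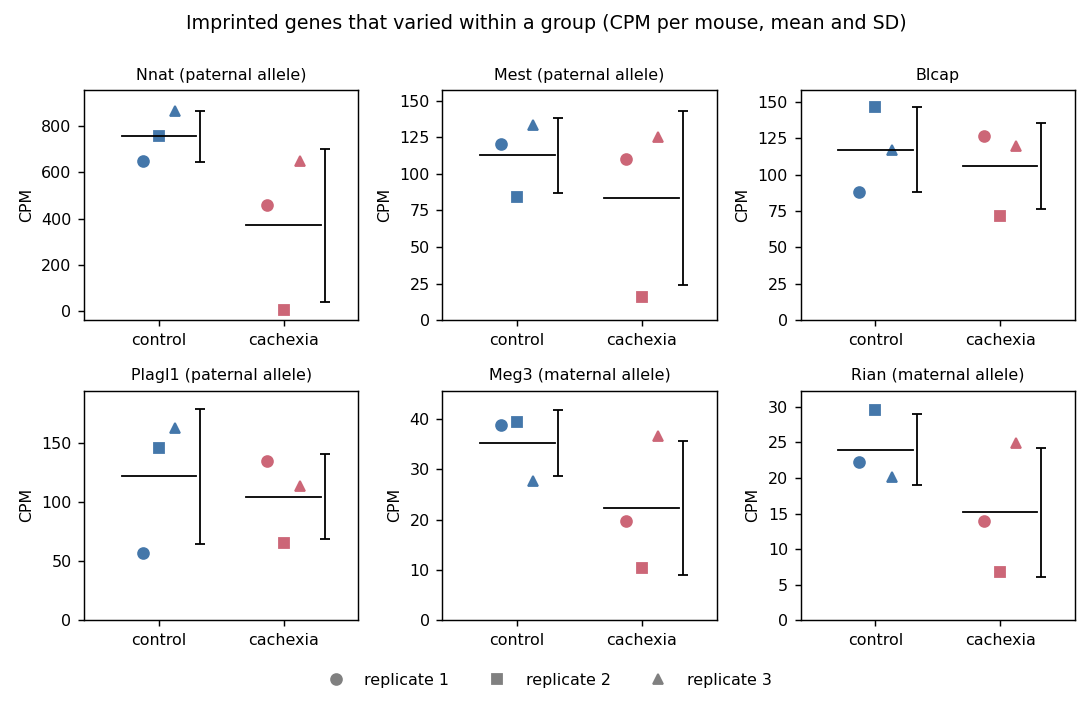
Expression in CPM (y axis) of Nnat, Mest, Blcap, Plagl1, Meg3 and Rian in the control and cachectic mice (x axis), with a symbol per mouse, the group mean as a line and the SD as a bar (n = 3). Cachexia replicate 2 is the lowest cachectic mouse in all 6 genes, at 4.05 CPM in Nnat and 15.5 CPM in Mest.

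Per gene length, the levels of the 40 genes spanned a wide range. In control mice Nnat, at 408 ± 58.9 FPKM, and Dcn, at 348 ± 30.8 FPKM, were the highest (SD, n = 3). Nnat was above Dcn in each control mouse, with 350, 407 and 468 FPKM beside 312, 366 and 366 FPKM. Blcap at 38.0 ± 9.44 FPKM and Mest at 28.2 ± 6.48 FPKM followed, and their spreads overlapped (SD, n = 3). Peg3 was in place 16 with 4.74 ± 1.37 FPKM, and Zim1 in place 32 with 0.200 ± 0.0554 FPKM. In cachectic mice Peg3 was at 68.5 ± 22.1 FPKM and Zim1 at 15.6 ± 3.39 FPKM. By group mean Peg3 stood above every listed gene except Nnat, at 198 ± 177 FPKM, and Dcn, at 331 ± 58.1 FPKM (SD, n = 3). In cachexia replicate 2, however, Nnat was at 2.16 FPKM and Peg3 at 50.6 FPKM. Dlk1, Igf2, H19 and Mirg were all below 1 FPKM in both groups.

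**Figure D5:**
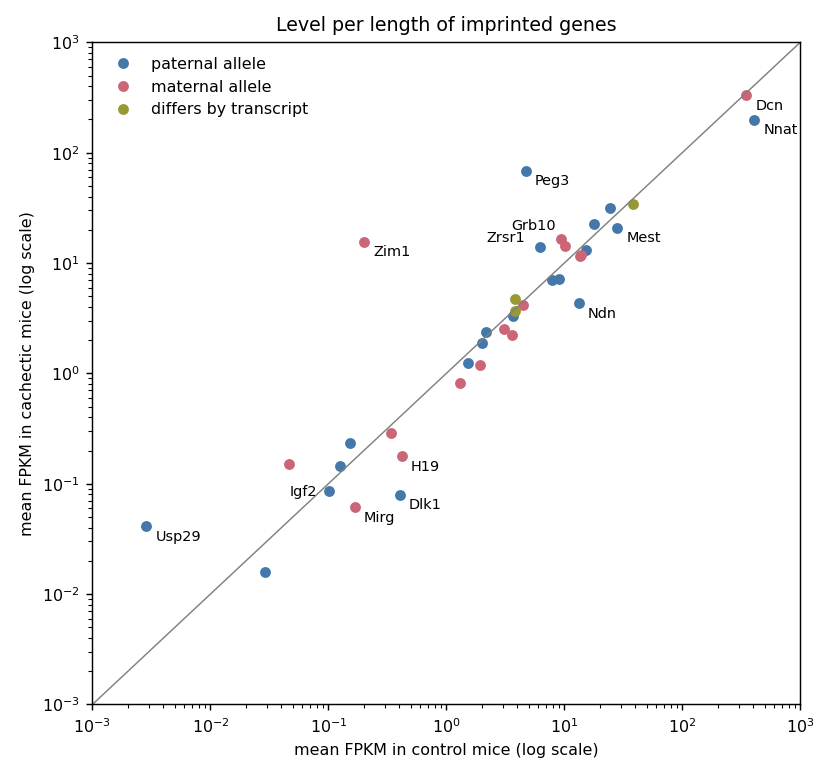
Mean FPKM in cachectic mice (y axis, log scale) against mean FPKM in control mice (x axis, log scale) for the imprinted genes with a value above 0 in both groups, which leaves out Ascl2 and Magel2, colored by the parental allele read. The line marks equal levels. Zim1, Peg3 and Usp29 lie above it, and Dlk1 and Ndn lie below it.

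The promoter windows of the list held more CpG than the median window. Some genes had several windows and some windows overlapped, such as those of Mest starting at chr6:30737800 and chr6:30737803. The windows are therefore not independent promoters. RefSeq held 47 windows of 250 bases upstream of a start for 32 of the 40 genes, with a median of 10 CpG, beside 6 over all 32851 windows. At least 10 CpG were found in 26 of the 47 windows (55.3%) and in 37.8% of all windows. Both strands were searched for the letters GCCATNTT, the core of the site of YY1, which binds the Peg3 control region, and GGGGCCCC, the core of the site of the imprinted factor PLAGL1. The former was in 1 window of the list (Ube3a) and 3.91% of all windows, and the latter in 3 windows (Peg3, Ppp1r9a and Rasgrf1) and 0.889% of all windows. The match upstream of Peg3 lies outside the stretch printed above. Motif matches do not show that a factor was bound.

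A wider list of imprinted genes, written with earlier results of these data known, did not pass more often than all tested genes. Of 45 further genes in the count table, 34 were tested and 5 passed, beside 17.6% of all tested genes, with a median log2 fold change of -0.18. The largest decrease was in Dio3, the gene at the far end of the Dlk1-Meg3 locus for the deiodinase that inactivates thyroid hormone, with 1.86, 1.95 and 1.76 CPM in the control mice and 0.17, 0.06 and 0 CPM in the cachectic mice. With 37, 34 and 31 counts in the control mice and 3, 1 and 0 counts in the cachectic mice, Dio3 reached the minimum for testing only through the control mice, so it had to differ and its log2 fold change of -4.39 ± 0.68 (SE) is given as a description. The others were Gatm, which makes the precursor of creatine (log2 fold change -2.65), Atp10a, a phospholipid flippase gene beside Ube3a in the Snrpn locus (-1.85), Dhcr7, for the last step of cholesterol synthesis (-1.25), and Pon2, a paraoxonase gene (-0.50). Gatm and Atp10a passed in all 16 alternatives. Dhcr7 did not pass without control replicate 2 (adjusted p-value 0.0551) or without control replicate 3 (0.0631), in a range of 8.5e-05 to 0.0631. Pon2 did not pass without control replicate 2 or 3 or cachexia replicate 2 or 3, where its log2 fold change lay between -0.49 and -0.45, nor without a filter on low counts (adjusted p-value 0.0572), in a range of 0.00438 to 0.131.

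Genes with a role in DNA methylation or chromatin were also examined. Not all of them keep imprints in place or act on all imprinted loci. Of 23 such genes 21 were tested, 1 was higher and 3 were lower, beside the 17.6% of all tested genes that passed. Zfp57, a KRAB zinc finger gene whose protein guards methylation at imprinted control regions, was 3.21, 4.47 and 3.06 CPM in the control mice and 5.83, 6.69 and 9.51 CPM in the cachectic mice. The groups did not overlap, but the adjusted p-value of its log2 fold change of 1.03 was 0.0491 in edgeR's quasi-likelihood test, and it passed in 8 of 16 alternatives. Leaving out any single mouse ended its call, with log2 fold changes between 0.81 and 1.22. Dnmt3a, a DNA methyltransferase gene, had a log2 fold change of -0.87, and without control replicate 2 or 3 or cachexia replicate 1 it did not pass (adjusted p-values over all alternatives 0.000755 to 0.0805). Uhrf1, which brings the maintenance methyltransferase to DNA, had -2.15, and it did not pass without control replicate 1 or 3 or cachexia replicate 1 or 3 (0.000614 to 0.0878 over all alternatives). Tet1, a methylcytosine dioxygenase gene, had -1.86 and passed in 5 of 15 alternatives, among those that left out a mouse only in that without cachexia replicate 2. Uhrf1 is also a gene of cycling cells, of whose markers 4 of 8 were lower, beside 8.63% of all tested genes. The part of these cells in the value of Uhrf1 was not tested. Dnmt1, the maintenance methyltransferase gene, had -0.04 and Trim28, the partner of ZFP57, had 0.04, and neither passed. DNA methylation was not analysed here.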

How the data were processed

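RNA-seq of eWAT from 3 cachectic and 3 control mice was analyzed, grouped by the sample labels. The authors aligned quality-filtered paired-end reads with Hisat2 and deposited the raw count of each gene from featureCounts 1.5.0-p3, and FPKM values calculated from count and gene length. A deposited table of the authors' own DESeq2 1.16.1 comparison (log2 fold changes, p-values, 6 columns of values per sample and 2 of group means) was not used. The labels name mm9, but 99.8% of the gene identifiers match GENCODE M21, which annotates GRCm38, 98.3% of them at identical positions, so coordinates are read as GRCm38.

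Counts were normalized by TMM and fitted without covariates by the quasi-likelihood test of edgeR 4.0.16 (R 4.3.3) on 16003 genes kept by filterByExpr. The SE was derived from this test, as the size of the log2 fold change over the square root of the F statistic. P-values were adjusted by Benjamini-Hochberg over these genes, with a threshold of 0.05. The biological coefficient of variation was 0.264, and totals of 14928766 to 18855546 counts limit the precision of low genes. All 15 pairs of samples differed beyond counting noise. In a simulation of this comparison, where 200 of 15761 tested genes were shifted by 2 on the log2 scale, edgeR recovered 198, and 5.71% of its calls were false. Every simulated gene had the same dispersion. The simulation therefore does not measure recovery of smaller changes or of genes that vary more between mice. The SD of log2 CPM used a pseudocount of 0.5. The genes named are all 40 listed genes, the genes of the 2 further lists that passed, the tested genes within 500 kb of Zim1 and genes that overlap a listed gene. Dnmt1, Trim28 and the 13 genes low in cachexia replicate 2 that the closing observations name were chosen after their values were seen. The listed genes and the gene lists were chosen with earlier results of these data known. Alternatives changed 1 choice at a time: RLE or library totals as scaling, dropping the filter, requiring 10 counts in every sample, DESeq2 1.42.0, limma-voom 3.58.1, limma on log2(FPKM + 1) or log2(FPKM + 0.1), a replicate block, each sample left out, listed genes of limited imprinting left out, and, added after seeing the data, edgeR's newer quasi-likelihood method and medians without Zim1 and Peg3.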

Additional observations from a re-analysis of the deposited data

How the results depend on the processing

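Over 809 alternative values of 51 genes, 746 kept their direction and their side of the threshold, 37 no longer passed, 4 passed newly and 22 changed sign. Of the 34 tested imprinted genes, 21 kept their direction in every alternative run and 13 did not. The number of all genes passing was 2821 in the main analysis, 828 to 2339 with a sample left out (828 without control replicate 3 and 1312 without control replicate 2), 3884 with DESeq2 and 1881 with a replicate block. The deviations of same-numbered samples correlated by -0.003, -0.011 and 0.008, so no shared deviation was seen. The labels only number the samples, so whether the mice were paired is not known. Under the block 4 imprinted genes were higher and 2 lower, as without it. The counts of imprinted genes here and below include Zim1 and Peg3, which were picked out by their values and lend no support. Over all tested genes 9.0% were higher and 8.63% lower in the main analysis. Under the block, Pon2 (adjusted p-value 0.0786), Uhrf1 (0.0813), Zfp57 and Tet1 did not pass, and the log2 fold change of Nnat was -1.95. With a sample left out, 3 to 5 imprinted genes were higher and 1 to 3 lower. With at least 10 counts in every sample, 1 was lower, because Dlk1 is then not tested. Without any filter and with DESeq2, 5 were higher, the added genes being Usp29 and Impact. The median of the paternally expressed genes was -0.24 to 0.05 with a sample left out. The median of the maternally expressed genes was -0.44 without genes of limited imprinting, which leaves 8 genes. Sign changes, all in genes that did not pass, were in Airn (0.0027 with library totals, 0.031 with limma-voom and 0.00069 with the replicate block) and Inpp5f (0.012 with library totals), for which the cause was not tested. With a sample left out, ranges that crossed 0 were -0.42 to 0.029 for Igf2, -0.84 to 0.067 for Mest, -0.56 to 0.040 for Plagl1, -0.29 to 0.42 for Kcnq1ot1, -0.32 to 0.075 for Blcap, -0.36 to 0.085 for Snrpn, -0.26 to 0.0084 for Ube3a, -0.077 to 0.39 for Peg10, -0.25 to 0.011 for Sgce, -0.75 to 0.28 for Asb4, -0.32 to 0.29 for Airn, -0.13 to 0.021 for Inpp5f, -0.18 to 0.072 for Dcn and -0.29 to 0.054 for Zfp954. The cause was not tested for these either. At this depth, Igf2, H19, Rtl1 and Mirg had few counts in a mouse, and small differences in them were not detectable.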

Other observations

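The low Nnat and Mest of cachexia replicate 2 were shared by few other genes. Chosen after the values were seen, 112 of all tested genes were at least 4-fold lower in this mouse than in each of the other 5 mice. Of these, 13 had at least 5 CPM in each of the others, namely Nnat, Mest, Lep, Ccdc80, Sncg, Retnla, Lgals12, Orm1, Hpgd, Sucnr1, Cdsn, Sfrp5 and Igfbp2. Several of them are known products of adipocytes, such as Lep, the leptin gene, and Sfrp5, an inhibitor of Wnt signaling. Lep was 999, 820 and 1242 CPM in the control mice and 108, 9.83 and 231 CPM in the cachectic mice. The sum of the adipocyte markers in this mouse was 37805 CPM, within the control range, and the sum of mesothelial markers was 199 CPM, the lowest of the 6 mice. The part of these cells in the values was not tested.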
